A study of Mus musculus with 12 samples.

Results

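Cytokine mRNAs are short-lived, and a small set of RNA-binding proteins sets how long they last. The 9 genes described here encode such proteins: Zfp36, Zfp36l1, Zfp36l2, Zc3h12a, Zc3h12c, Elavl1, Rc3h1, Hnrnpd and Tia1. They were taken by name, or by an older alias, from the probes of the arrays. The list was drawn up with earlier results of these data known, so counts of called members are descriptions. All 9 were measured, by 18 probes out of 41174 on the arrays, and all 18 probes passed the filter on dim probes. They are 9 of the 16742 genes tested. Hnrnpd stands in the array files under its older name Hnrpd, and 1 of the 2 probes of Rc3h1 stands under a clone name. The older names Brf1, Brf2 and Reg1 are shared with other genes, and the 5 probes carrying them belong by accession to those other genes and were left out.

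RNA came from peritoneal macrophages of female mice aged 10 weeks, collected 96 h after thioglycollate was injected as an irritant. The mice were either MyD88-null, without the adaptor protein that carries signals of Toll-like and interleukin-1 receptors, or C57BL/6. All cells were loaded with cholesterol at 10 µg/ml overnight and then kept with polymyxin B, which binds lipopolysaccharide, at 25 µg/ml. The 4 groups were MyD88-null with apoA-I, MyD88-null control, C57BL/6 with apoA-I and C57BL/6 control, with 3 arrays each. ApoA-I, a lipoprotein component that takes up cellular cholesterol, was given at 10 µg/ml for 2 h. By its title, the series concerns transcripts induced by apoA-I and their dependence on MyD88. The labels tie no sample to an animal or a pool, so the spread behind each p-value is that between these samples and may be technical. The labels also do not state the genetic background of the null mice.

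For 2 arrays, replicate 2 of the MyD88-null cells with apoA-I and replicate 2 of the C57BL/6 controls, the title and the free-text description disagree on whether apoA-I was added. The titles were followed, and results that depend on these 2 arrays are also given without them. The share of probes well above background ran from 57.6% to 73.6% over the arrays. Myd88 itself averaged 2.81 ± 0.415 with apoA-I and 1.79 ± 0.358 in control cells of MyD88-null mice, against 3.96 ± 0.481 with apoA-I and 3.31 ± 0.303 in control cells of C57BL/6 mice (log2 level, SD, n = 3 each). Its probe may lie outside the deleted part, so this does not test the labels. The summed linear level of 8 macrophage markers ran from 561 to 1288 times an array's 75th percentile. The summed levels of the B cell, T cell, neutrophil, mast cell and eosinophil markers measured reached at most 8.80, 2.34, 1.21, 5.70 and 0.482 times it, while mesothelial and fibroblast markers reached 98.9 times it. Neutrophil Ly6g and eosinophil Prg2 and Epx did not pass the filter on dim probes. In bulk RNA, fewer cells of a type and less RNA per cell cannot be told apart.

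Tristetraprolin, encoded by Zfp36, and its relatives encoded by Zfp36l1 and Zfp36l2 bind AU-rich elements in cytokine mRNAs and recruit the CCR4-NOT deadenylase, which shortens the poly(A) tail. Hnrnpd encodes AUF1, another AU-rich element binder. Zc3h12a and Zc3h12c encode Regnase-1 and Regnase-3, endonucleases that cut mRNAs, and Rc3h1 encodes Roquin-1, which binds stem-loops in cytokine mRNAs. Elavl1 encodes HuR, which binds AU-rich elements and stabilises mRNAs, and Tia1 encodes a translational silencer of AU-rich mRNAs. In macrophages, tristetraprolin and Regnase-1 are known as feedback limits on Tnf and Il6 mRNA.

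RefSeq promoter sequences (build GRCm38.p6) were found for 8 of the 9 genes. They are shown for Zfp36 and Zc3h12a, which were called for apoA-I in both genotypes once same-numbered samples were blocked, as the 250 bases before the transcription start on the coding strand. Zc3h12c met the same condition, and its windows are described below but not shown. The Zfp36 window lies at chr7:28379229-28379478 and the Zc3h12a window at chr4:125127882-125128131, both on the minus strand. Capitals mark a CArG box, the motif bound by serum response factor, and after it a STAT motif.
Zfp36: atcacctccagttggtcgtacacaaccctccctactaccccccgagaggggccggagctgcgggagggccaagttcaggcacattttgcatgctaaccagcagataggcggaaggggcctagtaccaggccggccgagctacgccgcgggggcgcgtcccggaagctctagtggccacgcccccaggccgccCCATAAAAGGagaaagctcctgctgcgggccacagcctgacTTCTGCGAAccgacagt
Zc3h12a: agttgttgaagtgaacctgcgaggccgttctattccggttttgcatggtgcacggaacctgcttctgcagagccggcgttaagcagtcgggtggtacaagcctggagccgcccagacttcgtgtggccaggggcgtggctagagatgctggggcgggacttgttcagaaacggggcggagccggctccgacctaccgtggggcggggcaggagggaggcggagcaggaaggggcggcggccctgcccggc

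Both strands of each window were searched for 6 motifs. These were the CArG box, the NF-kappaB consensus, and the STAT (TTCNNNGAA) and C/EBP (TTGCNNAA) motifs. The AP-1 motif was TGANTCA. The TATA motif was TATAAA. The Zfp36 window held a CArG box from 58 to 49 bases before the start and a STAT motif from 17 to 9 bases before it. Of 32851 promoter windows of the same length, 1.47% held a CArG box and 7.02% a STAT motif. None of the 6 motifs was found in the Zc3h12a window, which says only that these letters are not in it. Among the other members, an AP-1 motif stood in the windows of Zfp36l1 and Rc3h1 (6.75% of all windows), and a TATA motif in that of Zfp36l1 (12.4%). RefSeq lists 2 starts for Zc3h12c, and an NF-kappaB consensus stood before one (7.25% of all windows) and a C/EBP motif before the other (9.56%). These matches are descriptions of sequence and not sites of binding.

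The first comparisons asked what apoA-I changed in each genotype. Of the 9 regulators, 3 were called higher with apoA-I in both genotypes by at least one of the fits: Zfp36, Zc3h12a and Zc3h12c. In MyD88-null cells Zc3h12c passed the threshold in limma's test across all genes. Zfp36 and Zc3h12a passed as well once the replicate number was kept as a block. The same held in C57BL/6 cells. Levels here are log2 of the processed intensity relative to the array's 75th percentile. A change counts as a call where the Benjamini-Hochberg adjusted p over all 16742 genes is below 0.05. In MyD88-null cells 1 of 9 members was called, where 1.14% of all genes were, and 3 of 9 with the block, where 4.06% were. In C57BL/6 cells 1 of 9 was called, where 0.83% of all genes were, and 3 of 9 with the block, where 3.4% were. Every called member rose. The groups did not overlap for 4 members in MyD88-null cells (11.6% of all genes) and for 3 in C57BL/6 cells (13.1% of all genes). The median change of the 9 members was 0.04 in MyD88-null and 0.30 in C57BL/6 cells, against 0.05 in MyD88-null and -0.0023 in C57BL/6 cells over all genes.

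**Figure D1:**
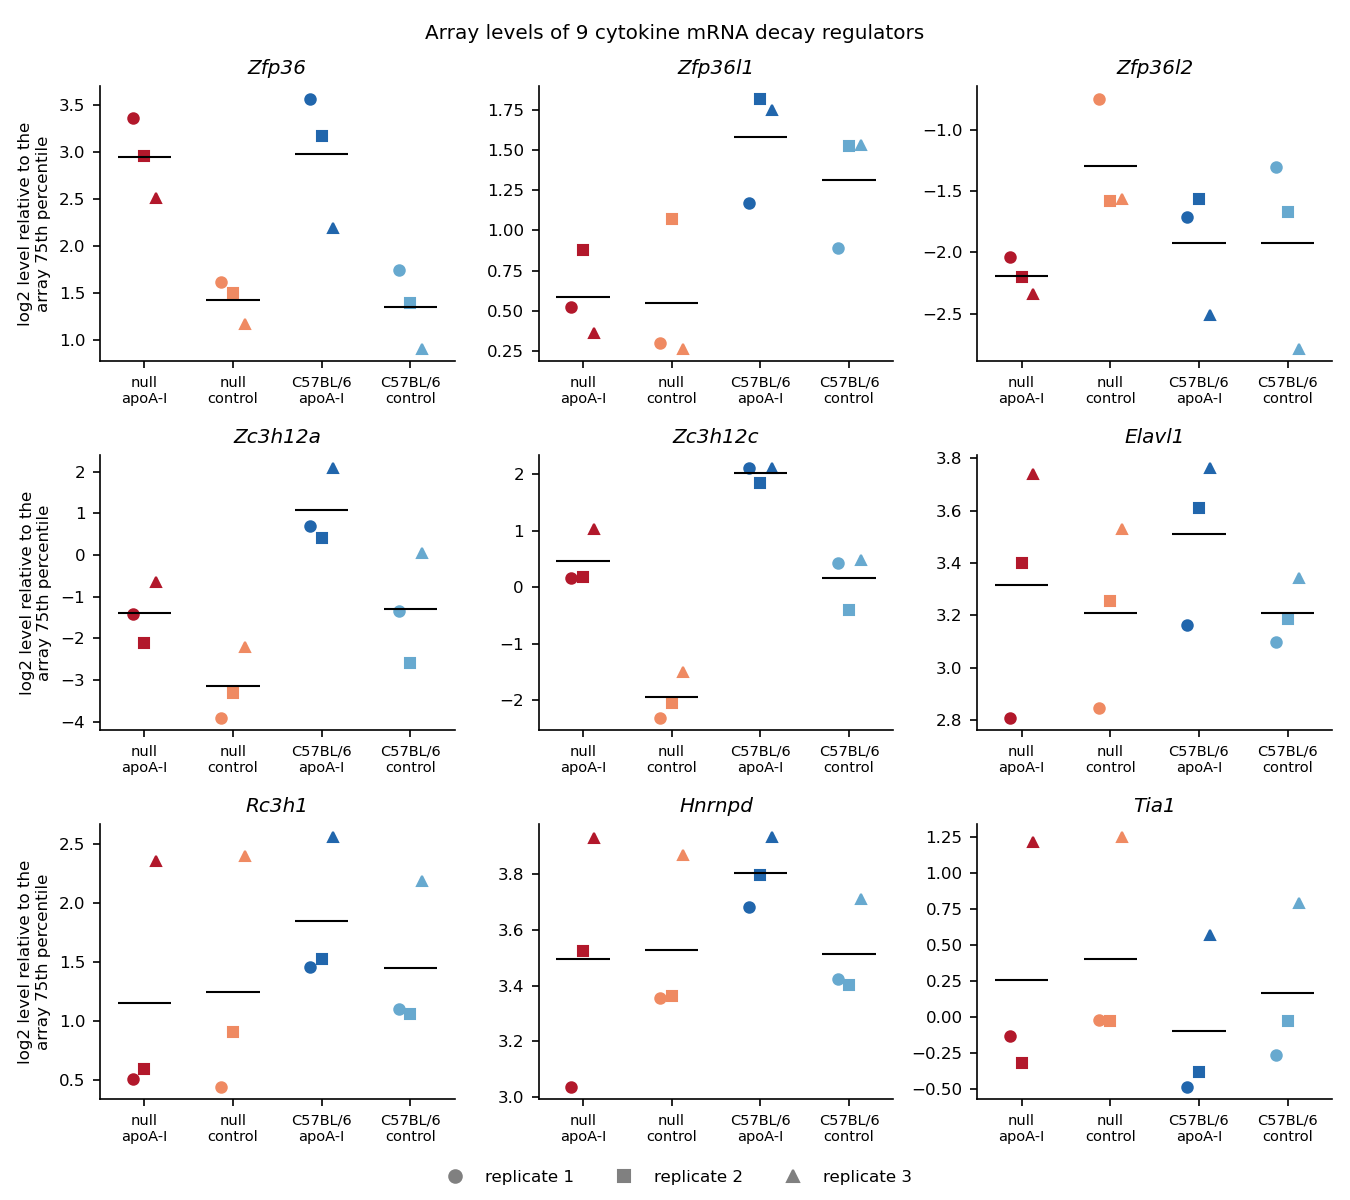
Levels of the 9 regulators on the 12 arrays: each point is an array (shape gives the replicate number), each bar the mean of 3, and the vertical axis the log2 level relative to the array's 75th percentile, with its own range in each panel. The apoA-I points of Zfp36, Zc3h12a and Zc3h12c lie above those of the controls of the same genotype.

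Zfp36, measured on mm7 chromosome 7 by a probe placed from 25310682 to 25310724, had log2 levels of 3.36, 2.95 and 2.51 in replicates 1 to 3 of MyD88-null cells with apoA-I, against 1.61, 1.50 and 1.16 in MyD88-null controls. All 3 apoA-I arrays lay above all 3 controls. C57BL/6 cells had levels of 3.57, 3.17 and 2.19 with apoA-I, against 1.74, 1.39 and 0.90 in controls, again without overlap. The log2 change was 1.51 in MyD88-null cells (2.86-fold) and 1.63 in C57BL/6 cells (3.1-fold), each with SE 0.375. Without the block limma's adjusted p was 0.124 in MyD88-null and 0.106 in C57BL/6 cells, short of the threshold. With the block the SE was 0.179 and Zfp36 rose in both, with limma's adjusted p of 0.00248 in MyD88-null and 0.00249 in C57BL/6 cells. These blocked calls held in all 12 fits that left out 1 array. Here and for Zc3h12c, the fits without an array of the other genotype leave the change itself as it was. With slide as a fixed block in place of the replicate number, limma's adjusted p was 0.0300 in MyD88-null and 0.0509 in C57BL/6 cells. The second Zfp36 probe (25310819 to 25310878) changed by 1.63 in MyD88-null and 1.58 in C57BL/6 cells (SE 0.468 each). Without the block it was not called, at limma's p adjusted over all probes of 0.222 in MyD88-null and 0.278 in C57BL/6 cells. With the mean of both probes Zfp36 passed without the block, at limma's adjusted p of 0.0113 in MyD88-null and 0.0138 in C57BL/6 cells. Replicate 3 was the lowest array of each group on the first probe and the highest on the second, a shift that the mean evens out.

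The Zfp36 changes of the 2 genotypes differed by less than their SE. The change in MyD88-null cells minus that in C57BL/6 cells was -0.12 (blocked SE 0.253), with a 95% interval from -0.70 to 0.46 in the blocked fit. Its levels with apoA-I averaged 2.94 ± 0.425 in MyD88-null and 2.97 ± 0.707 in C57BL/6 cells (SD, n = 3 each). Controls averaged 1.42 ± 0.233 in MyD88-null and 1.34 ± 0.417 in C57BL/6 cells (SD, n = 3 each). The genotypes overlapped under both treatments, and the treated group of either genotype lay above the controls of both.

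Zc3h12a, on mm7 chromosome 4 (probe at 124563273 to 124563332), had log2 levels of -1.42, -2.12 and -0.64 in apoA-I-treated MyD88-null cells, against -3.90, -3.31 and -2.21 in MyD88-null controls. The 2 groups did not overlap, though only narrowly, and replicate 3 was the highest array of each. In C57BL/6 cells the levels were 0.69, 0.41 and 2.10 with apoA-I, against -1.36, -2.59 and 0.06 in controls, and replicate 3 was again the highest. The change was 1.75 in MyD88-null cells (3.36-fold, limma's adjusted p = 0.536) and 2.36 in C57BL/6 cells (5.14-fold, adjusted p = 0.298), each with SE 0.725. The blocked fit lowered the SE to 0.325, and Zc3h12a then rose in MyD88-null cells at limma's adjusted p of 0.0248 and in C57BL/6 cells at 0.0072. When arrays were left out 1 at a time, the blocked call in C57BL/6 cells was lost without apoA-I replicate 2 (adjusted p = 0.0572). The blocked call in MyD88-null cells was lost in 4 of 12 such fits, with limma's adjusted p up to 0.11. These were the fits without MyD88-null control replicates 1 and 3 and without MyD88-null apoA-I replicates 1 and 2. Of the fits without a MyD88-null array, only those without control replicate 2 or apoA-I replicate 3 kept the call. The other fits left out a C57BL/6 array, which leaves this change as it was.

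Zc3h12c was the member called in both genotypes without the block. Its probe lies on mm7 chromosome 9 at 52090556 to 52090615. The log2 levels were 0.17, 0.17 and 1.03 in apoA-I-treated MyD88-null cells, against -2.31, -2.05 and -1.51 in MyD88-null controls. Every treated array stood well above every control. C57BL/6 cells had 2.12, 1.85 and 2.12 with apoA-I, against 0.42, -0.40 and 0.48 in controls. The change was 2.41 in MyD88-null cells (5.31-fold, limma's adjusted p = 0.00477) and 1.86 in C57BL/6 cells (3.64-fold, adjusted p = 0.0324), each with SE 0.332. With the block limma's adjusted p was 0.000796 in MyD88-null and 0.00473 in C57BL/6 cells, and both calls held in all 12 fits that left out 1 array. Without the block the call in MyD88-null cells held in all 12 such fits, whereas that in C57BL/6 cells was lost in 7 of 12. These were the fits without any 1 of the 6 C57BL/6 arrays or without MyD88-null control replicate 2, with limma's adjusted p from 0.0628 to 0.151. It was also lost under quantile normalization (0.0579), with no filter on dim probes (0.0877) and with slide as a fixed block (0.0532). With only the groups compared in the fit, limma's adjusted p was 0.0687 in MyD88-null and 0.0925 in C57BL/6 cells.

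For these 3 genes all treated arrays lay above all controls of the same genotype, so any pairing of samples gives the same direction. The pairs by replicate number and by slide therefore add only the sizes. For Zfp36, apoA-I minus control was 1.74, 1.46 and 1.34 in replicates 1 to 3 of MyD88-null cells and 1.83, 1.78 and 1.29 in those of C57BL/6 cells. For Zc3h12a it was 2.48, 1.19 and 1.57 in MyD88-null cells and 2.05, 3.00 and 2.04 in C57BL/6 cells. For Zc3h12c it was 2.48, 2.22 and 2.53 in MyD88-null cells and 1.70, 2.25 and 1.64 in C57BL/6 cells. On the slides that held both groups, the differences of MyD88-null cells were 1.86 and 1.34 for Zfp36, 1.89 and 1.57 for Zc3h12a, and 2.21 and 2.53 for Zc3h12c. For C57BL/6 cells the slides held the pairs of replicates 1 and 2 given above.

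Leaving out both arrays with conflicting descriptions kept the directions of these changes but not all sizes or calls. In MyD88-null cells the blocked changes were then 1.57 for Zfp36, 1.90 for Zc3h12a and 2.48 for Zc3h12c, with limma's adjusted p of 0.0497, 0.0478 and 0.0158. The C57BL/6 changes were 1.59, 1.92 and 1.65 in the same order of genes, with limma's adjusted p of 0.0705, 0.0672 and 0.0865. With all arrays the changes were 1.51, 1.75 and 2.41 in MyD88-null and 1.63, 2.36 and 1.86 in C57BL/6 cells. No member was called in either genotype when the treatments were taken from the descriptions. The Zfp36 level was 2.95 on MyD88-null apoA-I replicate 2, between the other treated arrays, and 1.39 on C57BL/6 control replicate 2, between the other controls. For Zc3h12a the same arrays were the lowest of their groups, at -2.12 and -2.59. For Zc3h12c the first lay between the other treated arrays, at 0.17, and the second was the lowest control, at -0.40.

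**Figure D2:**
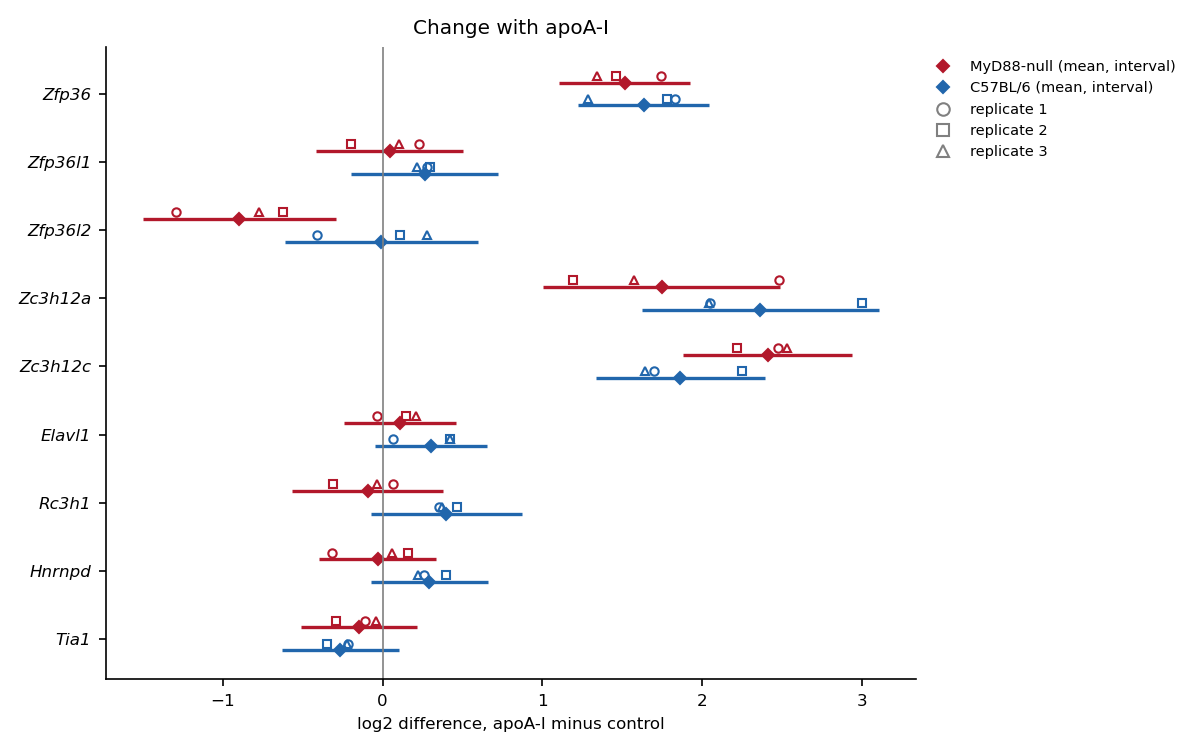
Change of each regulator with apoA-I (log2, apoA-I minus control) in MyD88-null and C57BL/6 cells: diamonds are means, bars 95% intervals of the fit with the replicate number as a block, and open symbols the difference within each replicate number. The intervals of Zfp36, Zc3h12a and Zc3h12c lie above 0 in both genotypes, and that of Zfp36l2 lies below 0 in MyD88-null cells.

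Neither relative of Zfp36 was called for apoA-I in either genotype. Zfp36l1, on mm7 chromosome 12 (78071105 to 78071166), changed by 0.04 in MyD88-null cells and 0.26 in C57BL/6 cells (SE 0.305 each, limma's adjusted p = 0.979 and 1.0), and its groups overlapped in both. Zfp36l2, on mm7 chromosome 17 (82480896 to 82480955), had log2 levels of -2.04, -2.20 and -2.34 in apoA-I-treated MyD88-null cells, against -0.75, -1.58 and -1.57 in MyD88-null controls. The treated arrays all lay below the controls. The change of -0.90 (SE 0.408) did not pass, with limma's adjusted p of 0.584, or 0.0973 with the block. Zfp36l2 in C57BL/6 cells had -1.71, -1.56 and -2.51 with apoA-I, against -1.30, -1.67 and -2.78 in controls, and the groups overlapped. That change was -0.01 (SE 0.408). Its response in MyD88-null cells minus that in C57BL/6 cells was -0.88, -0.73 and -1.05 in replicates 1 to 3. The blocked 95% interval of that difference ran from -1.74 to -0.03, yet over all genes limma's adjusted p was 0.668.

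The remaining AU-rich element binders and the stem-loop binder gave no call. Hnrnpd, on mm7 chromosome 5 (99175943 to 99176002), had log2 levels of 3.04, 3.52 and 3.93 in apoA-I-treated MyD88-null cells, against 3.35, 3.36 and 3.87 in MyD88-null controls. C57BL/6 cells had levels of 3.68, 3.80 and 3.93 with apoA-I, against 3.42, 3.40 and 3.71 in controls. These groups overlapped, and the blocked intervals of the change ran from -0.40 to 0.34 in MyD88-null and from -0.07 to 0.66 in C57BL/6 cells. The second Hnrnpd probe changed by -0.09 in MyD88-null and 0.20 in C57BL/6 cells. Rc3h1, on mm7 chromosome 1 (160936908 to 160936967), changed by -0.09 in MyD88-null and 0.40 in C57BL/6 cells, with blocked intervals from -0.57 to 0.38 and from -0.07 to 0.87. Its second probe had the opposite sign in MyD88-null cells, with a change of 0.31, and changed by 0.47 in C57BL/6 cells (SE 0.299 each). On the first probe the replicate 3 arrays lay above the other arrays of their groups, at 2.36 with apoA-I and 2.40 in controls of MyD88-null mice, and at 2.57 with apoA-I and 2.19 in controls of C57BL/6 mice.

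Elavl1 and Tia1, whose proteins stabilise mRNAs and hold back their translation, were not called either. Elavl1, on mm7 chromosome 8 (4252707 to 4252766), had 2.81, 3.40 and 3.74 in apoA-I-treated MyD88-null cells, against 2.85, 3.25 and 3.53 in MyD88-null controls. Levels in C57BL/6 cells were 3.16, 3.61 and 3.77 with apoA-I, against 3.1, 3.19 and 3.34 in controls, and on this brightest probe the groups overlapped in both genotypes. The 3 probes disagreed in size but not in sign: from the brightest on, the change was 0.11, 0.27 and 0.48 in MyD88-null cells and 0.30, 0.59 and 1.08 in C57BL/6 cells. On the other 2 probes the C57BL/6 groups did not overlap. The second had 0.84, 1.12 and 0.99 with apoA-I, against 0.52, 0.57 and 0.10 in C57BL/6 controls, and the third -0.31, -1.14 and -1.26 with apoA-I, against -1.70, -2.25 and -2.01 in C57BL/6 controls. Adjusted over all probes, limma's p was 0.508 for the second and 0.431 for the third, or 0.13 and 0.0559 with the block. Tia1, on mm7 chromosome 6 (86505491 to 86505550), changed by -0.15 in MyD88-null and -0.26 in C57BL/6 cells, with blocked intervals from -0.51 to 0.22 and from -0.63 to 0.10. Of its other 3 probes, 1 changed by -0.79 in MyD88-null and -0.04 in C57BL/6 cells (SE 0.421 each), and 1 by 0.0023 in MyD88-null and -0.42 in C57BL/6 cells (SE 0.348 each). The last, well above background on only 5 of 12 arrays, changed by -0.63 in MyD88-null cells and was not well above background on any C57BL/6 array with apoA-I. No Tia1 probe was called in either genotype.

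The next comparison asked whether the response to apoA-I depended on MyD88. No member of 9 differed in limma's test of the difference of responses, with or without the block, where 0% of all genes were called. At an unadjusted p below 0.05 there were 0 members without the block (1.17% of all genes) and 1, Zfp36l2, with it (7.36%). For Zc3h12a the difference of responses, MyD88-null minus C57BL/6, was -0.61, with a blocked interval from -1.66 to 0.43. For Zc3h12c it was 0.55, with a blocked interval from -0.20 to 1.29.

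The comparison of genotypes asked how MyD88-null cells differed from C57BL/6 cells at the same treatment. With the block Zc3h12c was lower in MyD88-null cells under both treatments and Zc3h12a with apoA-I, and no other member was called. For Zfp36 the difference was -0.04 with apoA-I and 0.08 between controls, with blocked 95% intervals from -0.45 to 0.37 and from -0.33 to 0.49. Without the block limma called 0 of 9 members between control cells (0.0956% of all genes) and 0 of 9 with apoA-I (0.0657%), while 3 had an unadjusted p below 0.05 in each, as had 3.52% of all genes between controls and 3.92% with apoA-I. With the block 1 of 9 was called between controls (0.591% of all genes) and 2 of 9 with apoA-I (0.227%), and all of these fell. The genotypes did not overlap for 1 member between controls (10.3% of all genes) and for 3 with apoA-I (5.63%). Both genotype comparisons hold different samples, but each shares its samples with the responses to apoA-I above.

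**Figure D3:**
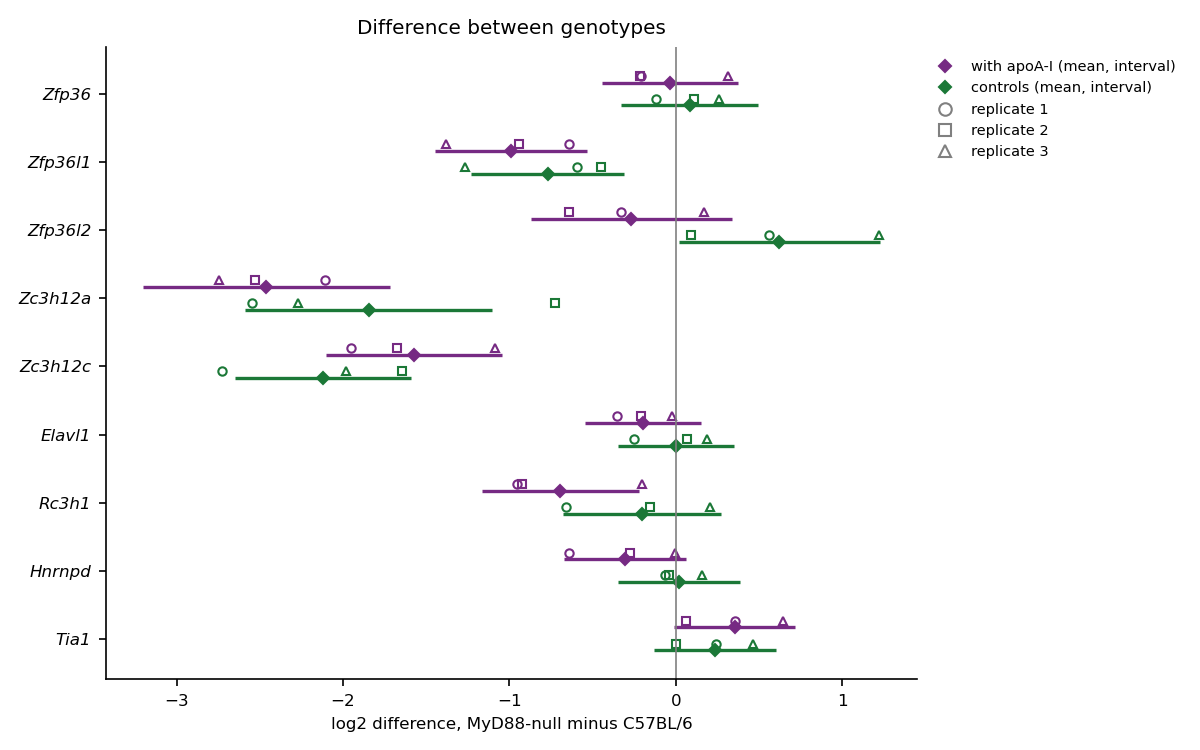
Difference of each regulator between genotypes (log2, MyD88-null minus C57BL/6) with apoA-I and in controls: diamonds are means, bars 95% intervals of the fit with the replicate number as a block, and open symbols the difference within each replicate number. Zc3h12a and Zc3h12c lie below 0 under both treatments in every replicate, as does Zfp36l1, while Zfp36 lies around 0.

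Between control cells Zc3h12c averaged -1.95 ± 0.409 in MyD88-null and 0.16 ± 0.492 in C57BL/6 cells (log2 level, SD, n = 3 each). The difference was -2.12 (SE 0.332, a 4.34-fold lower level), with limma's adjusted p of 0.0548, or 0.00637 with the block. That blocked call held in all 12 fits that left out 1 array, though the fits without an apoA-I array leave this difference as it was. It was lost without both arrays with conflicting descriptions, where the difference was -2.33 with limma's adjusted p of 0.0675. It was also lost with slide as a fixed block, where limma's adjusted p was 0.232. With apoA-I Zc3h12c averaged 0.46 ± 0.494 in MyD88-null and 2.03 ± 0.155 in C57BL/6 cells. That difference of -1.57 (SE 0.332) had limma's adjusted p of 0.351, or 0.0488 with the block. That blocked call held in only 1 of 12 fits that left out 1 array, the one without C57BL/6 control replicate 1, with adjusted p up to 0.295 in the others. With slide as a fixed block limma's adjusted p was 0.328. The treated MyD88-null arrays, from 0.17 to 1.03, overlapped the untreated C57BL/6 arrays, from -0.40 to 0.48.

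With apoA-I Zc3h12a averaged -1.40 ± 0.739 in MyD88-null and 1.07 ± 0.905 in C57BL/6 cells, and controls averaged -3.14 ± 0.856 in MyD88-null and -1.30 ± 1.32 in C57BL/6 cells (SD, n = 3 each). The difference with apoA-I was -2.46 (SE 0.725, a 5.51-fold lower level), or -2.11, -2.53 and -2.74 in replicates 1 to 3. It was called only with the block, at limma's adjusted p of 0.0304 against 0.967 without it. The blocked call held in 6 of 12 fits that left out 1 array, all of them fits without a control array. It was lost without any 1 of the apoA-I arrays, the arrays compared here, with limma's adjusted p up to 0.227. With slide as a fixed block limma's adjusted p was 0.097. Between controls the difference of -1.85 did not pass, with limma's adjusted p of 1.0, or 0.0585 with the block. Replicate 2 gave -0.72 there, against -2.54 and -2.27 in replicates 1 and 3. Without both arrays with conflicting descriptions, the blocked differences were -2.30 with apoA-I and -2.29 between controls, neither passing (limma's adjusted p = 0.175 and 0.0772). As for Zc3h12c, the treated MyD88-null arrays overlapped the untreated C57BL/6 arrays.

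Zfp36l1 lay lower in MyD88-null cells in every replicate, without a call. With apoA-I its log2 levels were 0.52, 0.88 and 0.36 in MyD88-null cells, against 1.17, 1.82 and 1.75 in C57BL/6 cells, without overlap. The difference was -0.99 (SE 0.305), with limma's adjusted p of 0.995, or 0.129 with the block. In controls they were 0.30, 1.07 and 0.26 in MyD88-null cells, against 0.89, 1.52 and 1.53 in C57BL/6 cells, and overlapped. The second Zfp36l1 probe ran from 0.40 to 0.48 in MyD88-null cells with apoA-I, against 0.81 to 1.81 in C57BL/6 cells with apoA-I. The summed level of 3 mast cell markers was also lower in MyD88-null cells, at 1.92 to 3.64 with apoA-I and 1.88 to 3.74 in controls, against 5.33 to 5.70 with apoA-I and 4.06 to 4.99 in controls of C57BL/6 mice. The 4 B cell markers summed to 4.07 to 7.31 with apoA-I and 4.43 to 5.12 in controls of MyD88-null mice, against 7.71 to 8.51 with apoA-I and 7.5 to 8.80 in controls of C57BL/6 mice. Their part in the genotype differences was not tested.

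The profiles most like those of Zfp36 and Zc3h12a across the 12 arrays were taken by Pearson's correlation of log2 levels. For Zfp36 these were Csrnp1 (0.978), Itga5 (0.960), Mul1 (0.959) and Rcan1 (0.958). For Zc3h12a they were Cebpb (0.961), Jag1 (0.955), Fam102b (0.939) and Slc2a1 (0.935). The arrays share groups, scan days and scaling, and genes were picked as the highest of all, so these values describe the profiles only.

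Few other genes of mRNA decay were called. Among 22 measured RNA-binding regulators of cytokine mRNAs outside the 9, limma called 0 in either genotype, while 2 in each had an unadjusted p below 0.05, as had 8.66% of all genes in MyD88-null and 7.42% in C57BL/6 cells. With the block G3bp1, a stress granule protein, rose in MyD88-null cells by 0.82 (SE 0.214, limma's adjusted p = 0.157, or 0.0169 with the block). Median changes were 0.07 in MyD88-null and 0.13 in C57BL/6 cells. Of 20 genes of the CCR4-NOT complex and other deadenylation factors, Btg1, whose protein binds the CCR4-NOT deadenylases, was the single call. It rose in MyD88-null cells by 1.45 (SE 0.186, limma's adjusted p = 0.00291). In C57BL/6 cells it changed by 0.91 (limma's adjusted p = 0.0668, or 0.0111 with the block). The medians of that list were -0.08 in both genotypes.

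Of 16 decapping and 5′ decay genes, 0 were called and 1 in each genotype had an unadjusted p below 0.05. Over all genes 8.66% in MyD88-null and 7.42% in C57BL/6 cells were below it. With the block Dcp2, the decapping enzyme, rose in MyD88-null cells by 0.63 (limma's adjusted p = 0.0449). Of 14 measured exosome genes limma called 0 with or without the block in either genotype. At an unadjusted p below 0.05 there were 0 without the block and 2 in each genotype with it, where 24.3% of all genes in MyD88-null and 16.1% in C57BL/6 cells were below it. Among 11 kinases and phosphatases that act on tristetraprolin, 0 were called without the block. In each genotype 2 had an unadjusted p below 0.05, as had 8.66% of all genes in MyD88-null and 7.42% in C57BL/6 cells. With the block Mapkapk2, which encodes MK2, the kinase that phosphorylates tristetraprolin, rose by 1.28 in MyD88-null and 1.48 in C57BL/6 cells (blocked SE 0.200 each, limma's adjusted p = 0.0113 and 0.00665). Mapk14, which encodes p38 alpha, upstream of MK2, rose with the block in MyD88-null cells by 0.80 (limma's adjusted p = 0.0301).

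The cytokine and effector mRNAs that carry AU-rich or stem-loop decay elements had the most calls and the highest median change of the lists shown. Of 20 genes listed, 19 were measured, and limma called 14 of these in each genotype without the block, all of them higher with apoA-I. Over all genes, bright in controls or not, it called 1.14% in MyD88-null and 0.83% in C57BL/6 cells. Genes dim in controls could enter only through arrays on which they were bright, so these counts are descriptions. Of the 9 genes well above background on all MyD88-null controls 4 were called, and of the 14 well above it on all C57BL/6 controls 9 were called. Tnf rose by 6.13 in MyD88-null and 5.16 in C57BL/6 cells (SE 0.603 each, limma's adjusted p = 0.000534 and 0.00225). Nfkbiz, whose mRNA Regnase-1 is known to cut, rose by 4.39 in MyD88-null and 3.99 in C57BL/6 cells (SE 0.399 each, limma's adjusted p = 0.00035 and 0.00109). The list's median change was 4.21 in MyD88-null and 4.92 in C57BL/6 cells. With the genes below background in all controls of a genotype set at their bound, 8 in MyD88-null and 4 in C57BL/6 cells, it was at least 2.68 and 4.37. Between genotypes limma called 6 of the 19 with apoA-I and 5 between controls without the block (0.0657% and 0.0956% of all genes). With the block it called 11 and 8 (0.227% and 0.591%), and all of these were lower in MyD88-null cells. All 19 were well above background on every C57BL/6 array with apoA-I and could enter through that group, so these counts and their direction are descriptions too. The median difference between controls was -1.50 as fitted, or -1.11 with 8 genes set at their bound in MyD88-null cells. Of these, 4 (Il12b, Il23a, Csf2 and Ifnb1) were below background in all C57BL/6 controls too. Their difference between controls has no bound, so the median of -1.11 is not a bound either.

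**Figure D4:**
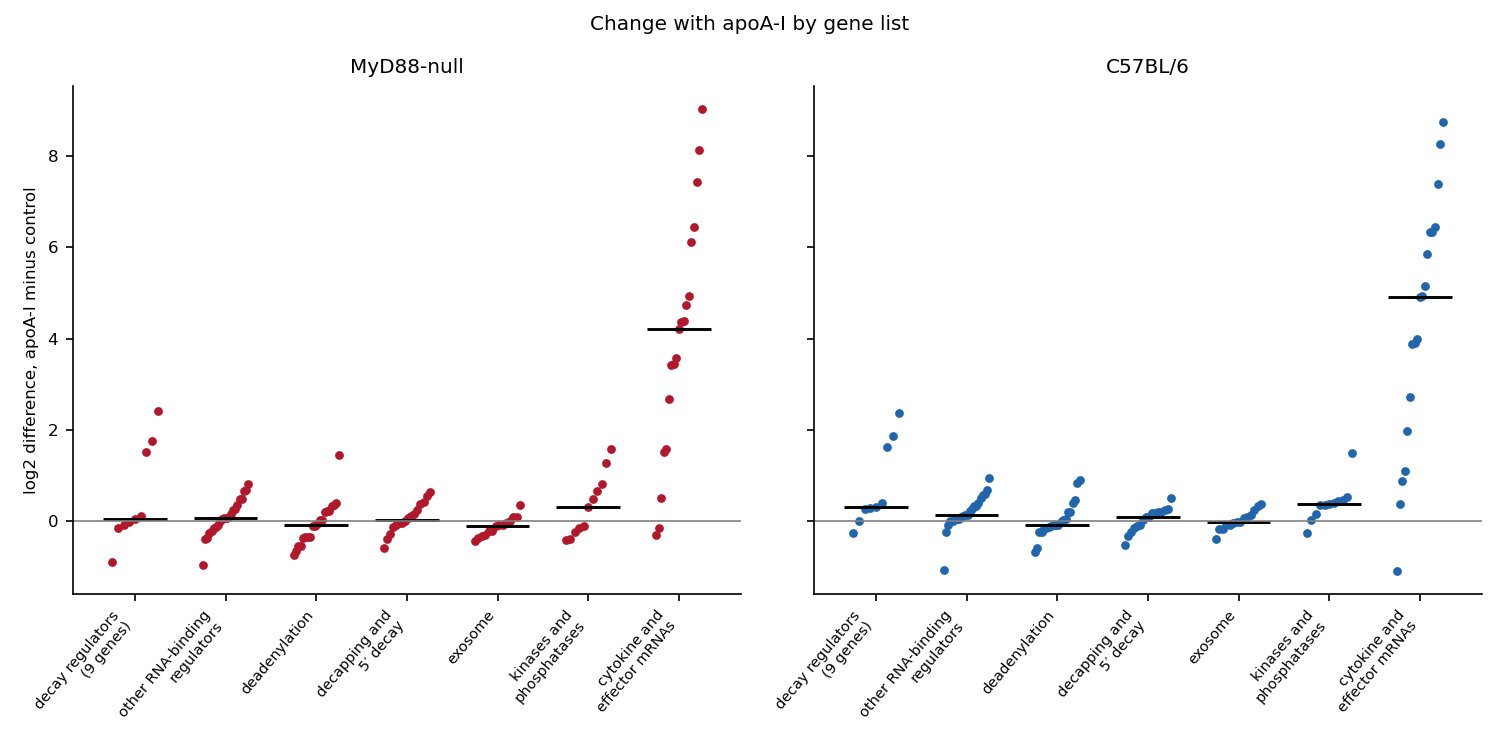
Change with apoA-I (log2, apoA-I minus control) of each measured gene in 7 lists, in MyD88-null and C57BL/6 cells: points are genes, bars medians of the fitted values. Zfp36, Zc3h12a and Zc3h12c are the 3 highest points of the first column, and the cytokine and effector mRNAs reach 9.03 in MyD88-null and 8.75 in C57BL/6 cells, as fitted values for genes that can lie below background in controls.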

How the data were processed

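The 12 one-colour arrays (4 groups of 3) were grouped by their titles. Per the file headers, the deposited processed intensity was background-corrected and detrended within the array by Feature Extraction (versions 9.5.1.1 and 9.5.3.1, and 9.5 per the submitters' processing notes), not scaled between arrays. Its 75th percentile ran from 199 to 1408. The mean spot and local background intensity deposited beside it are raw pixel summaries. A deposited value table holds log10 intensity, a scale read from its correlation with the scanner values (0.993 to 1.000 per array). Its column medians ran from 1.82 to 1.87. Its normalization and centring are unknown.

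Log2 levels are log2 processed intensities with each array's 75th percentile subtracted, after averaging spots of a probe and leaving out outlier flags. A probe entered if every array of some group had it well above background, which 24347 of 41174 did. The brightest kept probe stood for its gene. Names came from accessions, symbols and synonyms in a RefSeq table (GRCm38.p6, names only), and 8440 probes kept the name in the file. Probe coordinates are the files' own (mm7). No exon annotation was used here. Promoter sequences come from RefSeq on GRCm38.p6. CRE, EGR and interferon response motifs were also searched and are not reported here.

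Limma 3.58.1 in R 4.3.3 fitted 4 group means to all 12 arrays, with two-sided p-values adjusted over 16742 genes at a threshold of 0.05. The fit without the block was tested on simulated data with independent noise on each array. That test did not cover the blocked fit or noise shared between arrays. SE is that of a log2 change and SD that over arrays. The blocked fit adds the replicate number. The series describes 3 replicate experiments of 4 samples, so the numbers were taken to pair the samples. Same-numbered samples deviated together from their group means in each of 18 pairs (correlations 0.296 to 0.859 across genes). Between samples of different numbers the correlations ran from -0.834 to 0.547. That range includes pairs within a group, whose deviations from their shared mean cancel out and so lean to negative correlations. It is therefore no fair baseline for the same-numbered pairs. Replicate 3 is also scan day 3, most arrays of replicate 1 share slide 1, and most of replicate 2 share slide 2. The correlations of same-numbered samples therefore cannot tell pairing of samples from a shared scan day or slide. The members and gene lists were chosen with earlier results of these data known. All 9 members and every probe of each were to be named. From the lists those past the threshold were to be named, at most 6 a comparison, and genes named from the blocked fit alone were chosen after their values were seen. The number of arrays limits the precision. Alternatives tried are given in the closing section.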

Additional observations from a re-analysis of the deposited data

How the results depend on the processing

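The counts of members called depended on the block and on the treatment assigned to the 2 arrays with conflicting descriptions. With the replicate block limma called 3 of 9 in MyD88-null and 3 in C57BL/6 cells for apoA-I, against 1 and 1 without it, 1 between control cells and 2 with apoA-I between genotypes, against 0 and 0. Slide as a random block gave 3, 3, 1 and 2 for the same comparisons, scan day as a block 3, 3, 1 and 1, and slide as a fixed block 3, 1, 0 and 0. The mean of a gene's probes gave 2 in each genotype, and probes above background on all arrays gave 1 between controls. In C57BL/6 cells the count was 0 under quantile normalization, with no filter, without both arrays with conflicting descriptions, with only the groups compared and with treatment taken from the descriptions. The last 2 also gave 0 in MyD88-null cells. No member turned its direction past the threshold. The cause of these shifts was not tested.

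Leaving out 1 array gave counts of 1 to 1 in MyD88-null cells, 0 to 1 in C57BL/6 cells, 0 to 1 between controls and 0 to 0 with apoA-I. The alternatives that combine the block with left-out arrays were chosen after seeing the data. In these, leaving out 1 array gave 2 to 3, 2 to 3, 1 to 2 and 0 to 2 for the same comparisons. Without both arrays with conflicting descriptions, the blocked counts were 3, 0, 0 and 0, and with treatment from the descriptions 0 throughout. The difference of responses gave 0 members in every setting run, and it could not be fitted with only the groups compared.

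Over all genes, calls for apoA-I ran from 0 (treatment from the descriptions) to 680 (replicate block) in MyD88-null and to 755 (slide as a random block) in C57BL/6 cells, against 191 and 139. They were 90 and 59 without both conflicting arrays, 90 and 81 with only the groups compared, 136 and 83 with no filter, 357 and 323 with scan day and 659 in MyD88-null cells with slide as a random block. Between genotypes they ran from 1 to 99 in controls, against 16, and from 2 to 44 with apoA-I, against 11. Slide as a random block also called 2 genes for the difference of responses, neither a member.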
